A study of Homo sapiens with 6 samples.

Results

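The laminin chains followed here are the products of 9 genes, LAMA1 to LAMA5, LAMB1, LAMB2, LAMB3 and LAMC1, out of 35639 genes measured by bulk RNA-seq in an osteoblastic cell line. They were taken by gene symbol, and the choice of a laminin set was itself made because of measured values: LAMB3 had been seen to be lower with H3.3-G34W than with H3.3-WT in these libraries. The members were thus selected on the same contrast, and values for it are given as a description. Where p-values of the fit over all genes are given for members in this contrast, they only describe that choice. All 9 genes were present in the table, and 9 of 9 passed the filter on low values (a value of at least 10 in at least 2 of 5 libraries). LAMB4 and LAMC3, also laminin chain genes, are given beside them for comparison.

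hFOB 1.19 is an osteoblastic line of human fetal origin that a temperature-sensitive form of the SV40 large T antigen keeps immortal. The cells were cultured at 34 °C, where they divide. They carried a lentiviral dTomato vector that was empty (EV) or encoded HA-tagged H3.3-WT or H3.3-G34W from the Drosophila His3.3A cDNA, and they were sorted in bulk for dTomato, so that the lines are not clones. There were 2 libraries for each of the 3 groups, and although the hFOB work drew on several infections, nothing states which infection gave each library, so p-values measure only the spread between these libraries, which may be technical. Groups follow the library titles, as do the names of the deposited columns. The genotype field of the labels gives 4 libraries the other way round, H3.3-WT for those titled G34W and the reverse, and if that field were right every direction given for H3.3-G34W relative to H3.3-WT would reverse. The values are a normalised signal (estimated counts scaled by the authors), so that depth in reads is unknown and precision is judged only from the spread between libraries. The values summed to between 38821143 and 48024590 in 5 libraries. EV replicate 1 summed to 157595150 and was listed at 0 for 28688 genes, among them every laminin chain given here except LAMA1 (51.5) and LAMB4 (46.1); it was left out of the comparisons given here and used only in 1 alternative, so EV is represented by EV replicate 2 alone.

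Laminins are large secreted glycoproteins in which an alpha, a beta and a gamma chain wind into a coiled coil. They form the cell-adhesive network of basement membranes, where alpha chain domains bind integrins and dystroglycan on the cell and short arms join neighbouring trimers or type IV collagen through nidogen. The beta and gamma chains can pair inside the cell before an alpha chain joins, and secretion of the trimer requires the alpha chain. Most trimers use LAMC1 with LAMB1 or LAMB2. LAMB3 assembles with LAMA3 in skin and other epithelia, and loss of LAMB3 causes junctional epidermolysis bullosa.

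LAMB3 lies on the minus strand of chromosome 1 (chr1:209614870-209652425, GRCh38.p14) and LAMC1 on the plus strand of the same chromosome (chr1:183023420-183145592). RefSeq promoter windows, 250 bases before to 50 bases after a start, were matched for 8 of the 9 chains. They are shown for LAMB3 and LAMC1, the members with both H3.3-G34W libraries below both H3.3-WT libraries, and for LAMA3, the alpha chain that assembles with LAMB3. Capitals mark matches to TGANTCA, the letters bound by AP-1 factors, which read the same on both strands. This motif, with any base at N, was in 2707 of 35116 windows of that length (7.71%) and in 2 of the 10 windows of these chains. LAMB3 has 3 annotated starts, of which the outermost and innermost, 1051 bases apart, are given. The LAMA3 window is that of an internal start 183567 bases inside the gene, from which the short form of the chain is made.
LAMB3 outer start, chr1:209652376-209652675, minus strand: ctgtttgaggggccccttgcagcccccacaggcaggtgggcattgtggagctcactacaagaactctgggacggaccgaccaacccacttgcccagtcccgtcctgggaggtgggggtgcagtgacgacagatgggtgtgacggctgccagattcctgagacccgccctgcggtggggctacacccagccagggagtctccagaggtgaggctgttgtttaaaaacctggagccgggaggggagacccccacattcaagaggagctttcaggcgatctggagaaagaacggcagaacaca
LAMB3 inner start, chr1:209651325-209651624, minus strand: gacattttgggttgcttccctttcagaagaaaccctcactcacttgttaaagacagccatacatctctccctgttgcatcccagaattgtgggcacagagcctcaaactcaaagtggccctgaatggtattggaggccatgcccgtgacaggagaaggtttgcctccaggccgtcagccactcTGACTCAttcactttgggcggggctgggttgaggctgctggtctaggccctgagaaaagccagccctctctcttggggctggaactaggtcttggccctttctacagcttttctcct
LAMA3 internal start, chr18:23872770-23873069, plus strand: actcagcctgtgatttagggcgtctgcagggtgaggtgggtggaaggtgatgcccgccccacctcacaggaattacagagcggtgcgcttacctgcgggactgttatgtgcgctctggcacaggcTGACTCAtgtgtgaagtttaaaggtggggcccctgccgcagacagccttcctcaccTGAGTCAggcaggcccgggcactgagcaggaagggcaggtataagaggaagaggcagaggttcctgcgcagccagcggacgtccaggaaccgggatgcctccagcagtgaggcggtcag
LAMC1, chr1:183023170-183023469, plus strand: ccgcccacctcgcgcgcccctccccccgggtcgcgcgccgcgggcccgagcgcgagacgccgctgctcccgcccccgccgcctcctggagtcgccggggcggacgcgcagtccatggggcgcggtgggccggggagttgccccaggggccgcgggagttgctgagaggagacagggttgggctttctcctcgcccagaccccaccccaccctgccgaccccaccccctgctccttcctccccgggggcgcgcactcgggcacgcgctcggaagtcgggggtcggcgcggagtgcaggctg
In the inner LAMB3 window the match began 67 bases before the start, and in the LAMA3 window matches began 125 and 69 bases before it. The LAMC1 and outer LAMB3 windows held none, and G and C made up 79.0% of the LAMC1 window, against 61.3% and 53.7% of the outer and inner LAMB3 windows. A match describes these letters only, since no factor binding was measured here.

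The line was checked against osteoblast markers. The type I collagen gene COL1A2 was the most abundant of 11 (90034 to 138799), and COL1A1 (24757 to 43115) and SPARC (72998 to 85409) were also high, whereas the osteoblast transcription factor SP7 and the bone matrix genes IBSP and DMP1 were under 10 in each of the 5 libraries, and RUNX2 lay between 236 and 573. ALPL lay between 107 and 1216, highest in H3.3-G34W replicate 1, and SPP1 between 171 and 649. Of the 11, 8 passed the filter on low values. In 1 of these 8, BGLAP, both H3.3-G34W values (4.08 and 27.4) were under both H3.3-WT values (44.9 and 39.3), beside 14.9% of genes. EV replicate 2 was at 5.55 for BGLAP. SP7, which did not pass the filter, also had both under (3.18 and 1.43, against 4.39 and 6.03), with EV replicate 2 at 1.57. The list summed to 219568 in EV replicate 2, 202142 and 213846 in H3.3-WT, and 191716 and 261602 in H3.3-G34W.

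H3.3-G34W replicate 1 stood apart from the other libraries. Its correlation with each of the other 4 across genes was 0.927 to 0.936, against up to 0.972 among those 4. Pluripotent stem cell markers summed to 64979 there, and to 932 in EV replicate 2, 849 and 839 in H3.3-WT and 711 in H3.3-G34W replicate 2. All 11 markers of that list with values were more than 2-fold above each other library, led by POU5F1 at 19441 against 41.6 to 75.4. Epithelial and keratinocyte markers reached a sum of 5720.2 in this library, against 387 in EV replicate 2, 395 and 489.9 in H3.3-WT and 317 in H3.3-G34W replicate 2, mainly from EPCAM (2175 against 9.97 to 46.6) and CDH1 (2104 against 39.9 to 64.9), the most abundant by its mean. Of these 8 markers, 3 (CDH1, EPCAM and ESRP1) were more than 2-fold above each other library, while TP63 was lowest there (5.72 against 13.6 to 25.03). The keratins that define keratinocytes, in which LAMB3 is best known, were near 0, with KRT5 at 0 in all but H3.3-WT replicate 1 (4.998) and KRT14 between 7.07 and 12.9. The part of this signal in the laminin values was not tested, so laminin values stand for each library separately and also without this one.

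Markers of 3 more cell types were summed. Endothelial markers summed to 2877 in EV replicate 2, 3067 and 3440.3 in H3.3-WT and 3067 and 1806 in H3.3-G34W, mostly from TEK, the most abundant by its mean, and TIE1. TEK was 1952 in EV replicate 2, 1829 and 1958 in H3.3-WT and 1548 and 782 in H3.3-G34W, and TIE1 was 716, 964 and 1301, and 716 and 916, so both H3.3-G34W values were under both H3.3-WT values in these 2 of 7 genes, beside 14.9% of genes. KDR was 656 in H3.3-G34W replicate 1 against 26.6 to 78.3, and the defining marker CDH5 was at most 10.9. Schwann and neural markers summed to 11.4 in EV replicate 2, 24.4 and 15.4 in H3.3-WT and 53.1 and 14.7 in H3.3-G34W, led by PAX6 (1.03 to 37.2), so that H3.3-G34W replicate 1 was again the highest. Myeloid markers summed to 171 in EV replicate 2, 214 and 202 in H3.3-WT and 233 and 103 in H3.3-G34W, led by CSF1R (39.7 to 143). Their part in the laminin values was not tested. In bulk libraries, fewer cells with a transcript and less of it per cell cannot be told apart.

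Which trimers hFOB cells hold RNA for was read from levels per kb of the longest coding transcript, the scale on which levels are compared between genes. LAMC1, the gamma chain of most laminins, had the highest mean level over the 5 libraries, 3124 per kb (2202 to 3987). The beta chains LAMB1 (1777 to 2542 per kb), LAMB2 (1425 to 2839.5) and LAMB3 (1245 to 2296) followed. The ranges of these 4 chains overlapped from each to the next, but within each of the 5 libraries LAMC1 was the highest of them. The order of the 3 beta chains was not resolved. A gap without overlap separated LAMB3 from the alpha chains.

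The alpha chains were all below these 4. LAMA5, the most widespread alpha chain of adult tissues, lay between 99.7 and 188 per kb, overlapping LAMA1, an alpha chain of the early embryo, below it (65.4 to 161 per kb). LAMA3, the epithelial alpha chain, lay between 58.6 and 67.6 per kb and LAMA4, known from blood vessels, between 33.7 and 72.0 per kb, again with overlap. LAMA2, whose loss causes a congenital muscular dystrophy, was separated from LAMA4, at 12.7 to 31.9 per kb. LAMC3 (4.56 to 18.5 per kb) and LAMB4 (0.139 to 6.85 per kb) were the lowest of the chains given.

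**Figure D1:**
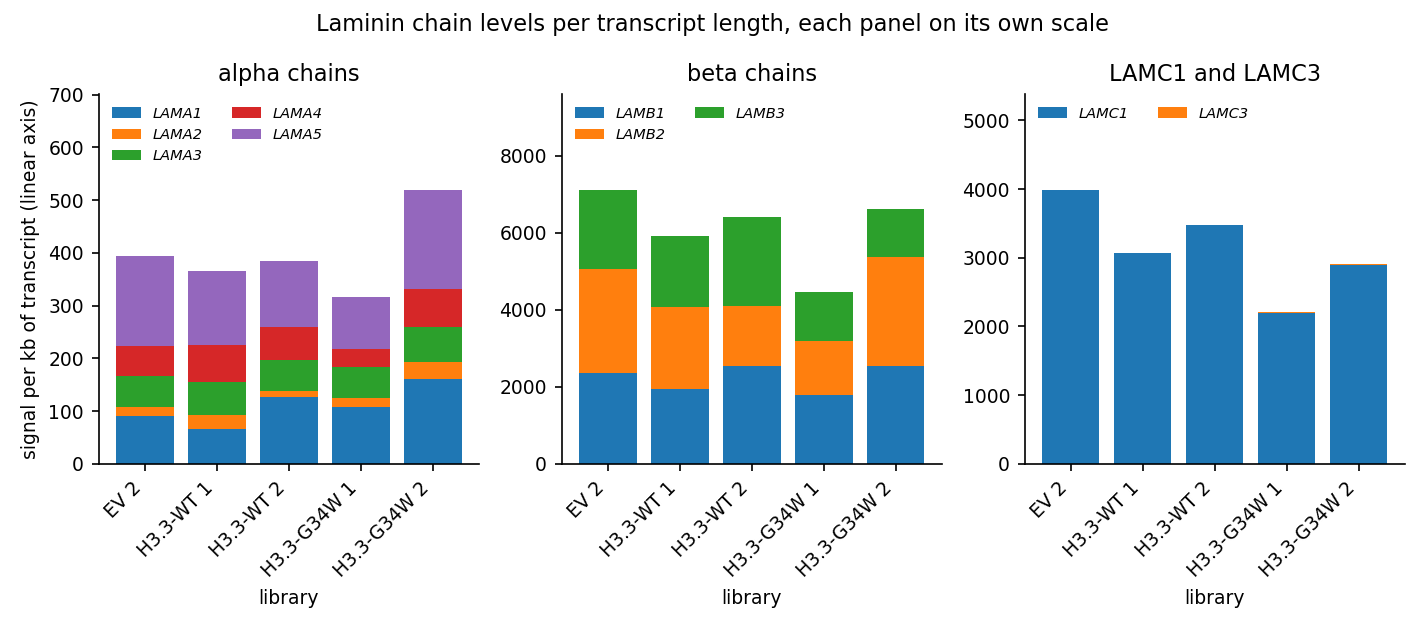
Signal per kb of the longest coding transcript (linear axes, each panel on its own scale) for the alpha chains, the beta chains and LAMC1 with LAMC3, stacked by gene, in each of 5 libraries; LAMB4, at most 0.0960% of the beta chains, is not drawn. Each alpha panel bar is far below the other 2 bars of the same library, and the LAMB3 and LAMC1 segments are shorter in both H3.3-G34W libraries than in H3.3-WT and EV replicate 2.

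Summed per kb, the alpha chains amounted to 9.86% of LAMC1 and LAMC3 together in EV replicate 2, 11.9% and 11.1% with H3.3-WT, and 14.3% and 17.8% with H3.3-G34W. The last 2 were above the other 3 with this length only. With the median length the percentages were 15.5% in EV replicate 2, 21.7% and 17.9% in H3.3-WT and 19.7% and 26.9% in H3.3-G34W, and the groups overlapped. With the longest transcript, the alpha sum in H3.3-G34W replicate 1 was the lowest of all 5 (317 per kb) and that in replicate 2 the highest (520.0 per kb). Within the alpha chains LAMA5 held the largest share in EV replicate 2 (43.4%), H3.3-WT replicate 1 (38.4%) and H3.3-G34W replicate 2 (36.2%), and LAMA1 in H3.3-WT replicate 2 (32.9%) and H3.3-G34W replicate 1 (34.0%). LAMB3 held 29.1% of the beta chains in EV replicate 2, 31.0% and 35.9% in H3.3-WT, and 28.1% and 18.8% in H3.3-G34W. Its share was thus lower in both H3.3-G34W libraries than in the other 3, which describes the choice of LAMB3.

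For 10 trimers of LAMC1 known from textbooks, the chain with the lowest level marks the chain in shortest supply as RNA. Since the alpha chains lay below LAMC1, LAMB1 and LAMB2 in each library, this was the alpha chain throughout. Trimers of LAMA5 with LAMC1 and LAMB1 or LAMB2 had the highest such level, with a median of 141 per kb over libraries, followed by LAMA1 (108 per kb), LAMA4 (62.7 per kb) and LAMA3 (59.1 per kb), and LAMA2 trimers were lowest (17.1 per kb). All chains of these 10 trimers had a value of at least 126 in each library. LAMB3, which is not in these trimers, had 35.1 times the level of LAMA3 in EV replicate 2, 29.2 and 39.2 times in H3.3-WT, and 21.3 and 18.4 times in H3.3-G34W. With the median length it had 15.3 times, 12.7 and 17.1 times, and 9.32 and 8.04 times. The ratio was lower in both H3.3-G34W libraries than in the other 3, an order that the choice of length cannot alter. LAMB3 was chosen for its lower H3.3-G34W values, so this order describes that choice.

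These levels depend on which transcript length is taken, because LAMA3 and LAMA4 have many short coding transcripts. With the median length of a gene's coding transcripts, the alpha chain was again the lowest in each of the 10 trimers. LAMA4 then had the highest alpha level, with a mean of 585 per kb, so the order within the alpha chains was not settled by these data, whereas LAMC1, LAMB1, LAMB2 and LAMB3 kept ranks 1 to 4. The table gives values per gene, and the long and short forms of LAMA3 cannot be told apart.

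**Figure D2:**
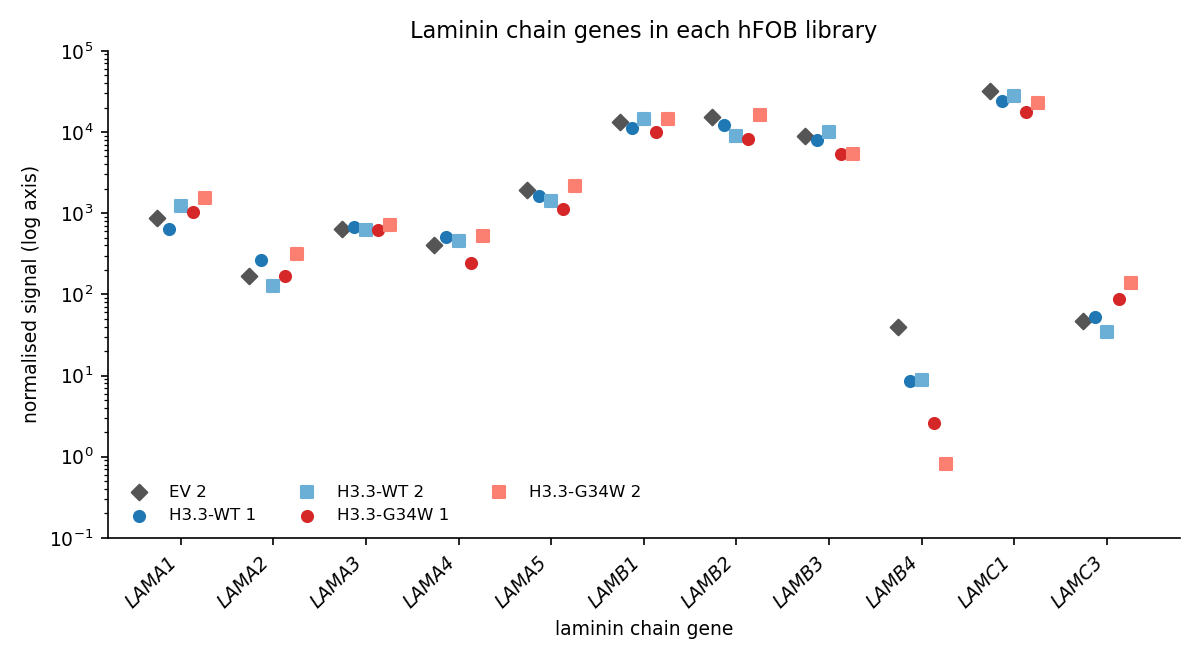
Normalised signal (log axis) of 11 laminin chain genes in EV replicate 2 (diamond) and in replicates 1 (circle) and 2 (square) of H3.3-WT (blue) and H3.3-G34W (red). For LAMB3, LAMC1 and LAMB4 both H3.3-G34W points sit below the other 3, for LAMC3 both sit above them, and values between genes are not scaled for length.

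LAMB3 was 8935 in EV replicate 2, 7917 and 9884 with H3.3-WT and 5396 and 5358 with H3.3-G34W. The H3.3-G34W libraries nearly coincided (5377 ± 27.2, SD, n = 2) and were lower than both H3.3-WT libraries (8900.4 ± 1391, SD, n = 2) and EV replicate 2. The H3.3-G34W mean was 60.4% of the H3.3-WT mean, a log2 difference of -0.72 (standard error 0.24) on the log2(value + 1) scale. Without H3.3-G34W replicate 1 the difference was again -0.72, and it ranged from -0.88 to -0.56 when single libraries were left out.

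LAMC1, the gamma chain shared by most trimers, was 31613 in EV replicate 2, 24315 and 27514 in H3.3-WT and 17457 and 22963 in H3.3-G34W. It was the only other member with both H3.3-G34W libraries below both H3.3-WT libraries, and both were also below EV replicate 2. The gap was narrower than for LAMB3, since H3.3-G34W replicate 2 was close to H3.3-WT replicate 1. The H3.3-G34W mean was 78.0% of the H3.3-WT mean, with a log2 difference of -0.37 (standard error 0.27) that was -0.17 without H3.3-G34W replicate 1 and -0.57 without H3.3-G34W replicate 2.

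LAMA3, which assembles with LAMB3, did not share its pattern. It was 629.8 in EV replicate 2, 671 and 624 in H3.3-WT and 626 and 720.1 in H3.3-G34W, the narrowest spread of the 11 chains given, with a log2 difference of 0.05 (standard error 0.30). It was 0.15 without H3.3-G34W replicate 1, -0.05 without H3.3-G34W replicate 2, 0.11 without H3.3-WT replicate 1 and 0.00 without H3.3-WT replicate 2.

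LAMB1, the common beta chain, was 13286 in EV replicate 2, 11053 and 14315 in H3.3-WT and 10041 and 14361 in H3.3-G34W. LAMB2, the beta chain of the neuromuscular junction and the kidney filter, was 15364 in EV replicate 2, 12125 and 8939 in H3.3-WT and 8114 and 16162 in H3.3-G34W. For both, the H3.3-G34W libraries spanned the H3.3-WT libraries, low in replicate 1 and high in replicate 2. The log2 difference was -0.07 (standard error 0.28) for LAMB1 and 0.14 (standard error 0.35) for LAMB2. Without H3.3-G34W replicate 1 these were 0.19 and 0.63, and without H3.3-G34W replicate 2 they were -0.33 and -0.36.

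LAMA5 was 1955 in EV replicate 2, 1606 and 1419 in H3.3-WT and 1139 and 2149 in H3.3-G34W, spanning the H3.3-WT libraries in the same way. LAMA4 was 406 in EV replicate 2, 510.1 and 453 in H3.3-WT and 244 and 520.4 in H3.3-G34W. Their log2 differences were 0.05 (standard error 0.33) and -0.43 (standard error 0.42), and without H3.3-G34W replicate 1 they were 0.51 and 0.11, and without H3.3-G34W replicate 2 they were -0.41 and -0.98. LAMA1 was 872 in EV replicate 2, 631 and 1218 in H3.3-WT and 1039.9 and 1548 in H3.3-G34W, a log2 difference of 0.53 (standard error 0.37) with overlapping groups. It was 0.06 without H3.3-WT replicate 1, 1.01 without H3.3-WT replicate 2, 0.82 without H3.3-G34W replicate 1 and 0.25 without H3.3-G34W replicate 2. LAMA2 was 170.4 in EV replicate 2, 267 and 126 in H3.3-WT and 171 and 317 in H3.3-G34W, also with overlap, a log2 difference of 0.34 (standard error 0.52). Its direction depended on single libraries, at 0.88 without H3.3-WT replicate 1, -0.20 without H3.3-WT replicate 2, 0.79 without H3.3-G34W replicate 1 and -0.11 without H3.3-G34W replicate 2. LAMA1 was thus above the H3.3-WT mean in both H3.3-G34W libraries, while LAMA2 was above it in replicate 2 only.

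LAMC3 was 47.3 in EV replicate 2, 51.9 and 34.0 in H3.3-WT and 88.7 and 138 in H3.3-G34W. This gamma chain was low throughout and, in the deposited values, the only one of the 11 chains with both H3.3-G34W libraries above both H3.3-WT libraries, a log2 difference of 1.38 (standard error 0.61) that was 1.69 without H3.3-G34W replicate 1 and 1.06 without H3.3-G34W replicate 2. LAMB4, for which little is known, was 40.1 in EV replicate 2, 8.47 and 8.70 in H3.3-WT and 2.60 and 0.817 in H3.3-G34W, and was too low to be tested.

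**Figure D3:**
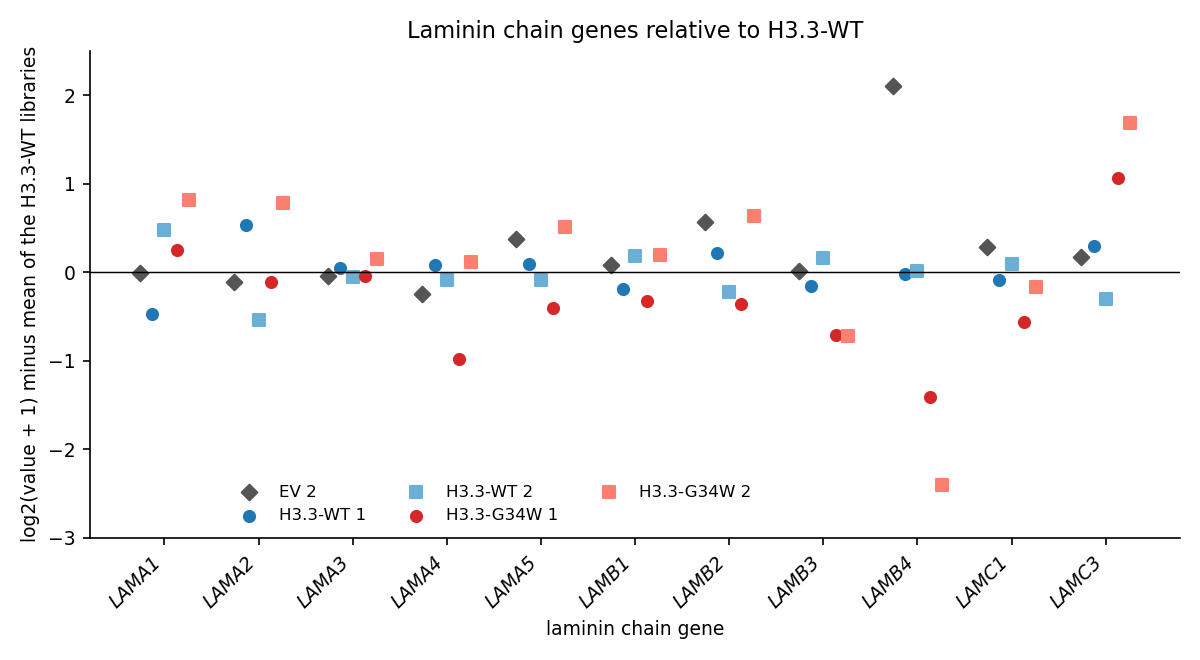
Log2(value + 1) of each laminin chain gene minus the mean of the H3.3-WT libraries, for EV replicate 2 (diamond) and replicates 1 (circle) and 2 (square) of H3.3-WT (blue) and H3.3-G34W (red). LAMB3 stands at -0.71 and -0.72 in the H3.3-G34W libraries, whereas LAMA2, LAMA3, LAMA4, LAMA5, LAMB1 and LAMB2 have the H3.3-G34W libraries on opposite sides of 0.

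Counted over the 9 members, 2 had both H3.3-G34W values under both H3.3-WT values, against 14.9% of the 16436 genes tested, and 0 had both above, against 11.5%. The same 2 members were also below EV replicate 2, against 9.66% of genes. The members were chosen on this contrast and nothing is read from these counts. For 6 of the 9 the H3.3-G34W libraries were on opposite sides of the H3.3-WT mean, H3.3-G34W replicate 1 below it each time. Of the 9 members, 7 had their highest value of the 5 libraries in H3.3-G34W replicate 2 and 5 were lowest in H3.3-G34W replicate 1. Across the members the median log2 difference was 0.05, beside -0.06 over all genes tested, and it was 0.19 without H3.3-G34W replicate 1, -0.36 without H3.3-G34W replicate 2, 0.06 without H3.3-WT replicate 1 and -0.08 without H3.3-WT replicate 2. Relative to the H3.3-WT mean, the log2 ratio had a median over all genes of -0.17 in H3.3-G34W replicate 1 and 0.04 in replicate 2.

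Rescaling each library to a common median kept LAMB3 apart, at 8089 and 9335 in H3.3-WT and 5948 and 5109 in H3.3-G34W. LAMC1 remained apart too, at 24844 and 25985 in H3.3-WT and 19242 and 21896 in H3.3-G34W. Rescaling changed the overlap of 1 member, LAMA3, at 686.0 and 589 in H3.3-WT and 690.3 and 686.7 in H3.3-G34W, where the gap is far smaller than the spread. Ratios within a library do not depend on its scale. Per kb, LAMB3 was 0.883 of LAMB1 in EV replicate 2, 0.940 and 0.906 in H3.3-WT, and 0.705 and 0.490 in H3.3-G34W. LAMC1 was 1.70 times LAMB1 in EV replicate 2, 1.57 and 1.37 times in H3.3-WT, and 1.24 and 1.14 times in H3.3-G34W. Relative to LAMB1, LAMB3 and LAMC1 were lower in both H3.3-G34W libraries than in the other 3, but relative to LAMB2 they were not. The ratios of LAMB3 rest on the values for which it was chosen. LAMB3 was 0.769 of LAMB2 in EV replicate 2, 0.863 and 1.46 in H3.3-WT, and 0.879 and 0.438 in H3.3-G34W, and LAMC1 was 1.48 times LAMB2, 1.44 and 2.21 times, and 1.54 and 1.02 times.

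Across the transcriptome, limma with Benjamini-Hochberg adjustment found 0 of 16436 genes (0%) at an adjusted p under 0.05 when H3.3-G34W was set against H3.3-WT. At an unadjusted p under 0.05 there were 280 higher genes (1.7%) and 186 lower genes (1.13%). Of the 9 members, 0 were among the higher and 1, LAMB3, was among the lower, which describes the choice of members. Without the variance trend, 0 members and 567 genes in all had an unadjusted p under 0.05 in limma. With all 6 libraries, 0 members and 28 genes in all did. The counts of members and of all genes also depended on single libraries. Leaving out 1 of 2 leaves a group of 1, whose spread is then taken from the other groups, and without H3.3-G34W replicate 2 the group is the library with the stem cell markers. There were 52 genes past the adjusted threshold without H3.3-G34W replicate 2, 6 without H3.3-WT replicate 1 and 1 without H3.3-WT replicate 2.

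H3.3-WT was compared with EV to see whether extra H3.3 by itself moved the chains. The choice of members did not use EV, but it used the same H3.3-WT libraries, so this contrast is not independent of it. EV being a single library, it is assumed to vary like the other groups. Among the 9 chains, 0 passed an adjusted p of 0.05 in limma, beside 0 of 16436 genes (0%). At an unadjusted p under 0.05 there were 0 of the 9 chains and 175 genes in all. The log2 differences of H3.3-WT from EV ran from -0.56 for LAMB2 (standard error 0.42) to 0.24 for LAMA4 (standard error 0.52). LAMB3 differed by -0.01 (standard error 0.30), with EV replicate 2 between the H3.3-WT libraries. LAMC1 differed by -0.29 (standard error 0.33), with EV replicate 2 above both. Leaving out H3.3-WT replicate 1 gave 3 genes past the threshold over all genes, leaving out H3.3-WT replicate 2 gave 2, and leaving out H3.3-G34W replicate 1 gave 1, with 0 laminin chains in each case.

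H3.3-G34W against EV uses the same H3.3-G34W libraries as the contrast that chose the members, so the values stand side by side and do not add support. Against EV replicate 2, LAMB3 differed by -0.73 (standard error 0.30) and LAMC1 by -0.66 (standard error 0.33), with adjusted p = 0.9997 for each in limma. The other 7 members ranged from -0.42 for LAMB2 to 0.54 for LAMA1. Of the 9 members 0 passed the threshold, beside 0 of 16436 genes (0%), and 1 of the 9, LAMB3, was among the 324 genes with an unadjusted p under 0.05. Without H3.3-G34W replicate 2, 28 genes passed, and without H3.3-G34W replicate 1, H3.3-WT replicate 1 or H3.3-WT replicate 2, 1 passed each time.

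Laminin receptors were followed next, as they bind the chains at the cell surface. Of 9 genes, 0 passed the threshold for H3.3-G34W relative to H3.3-WT, and their median log2 difference was -0.10 (-0.04 without H3.3-G34W replicate 1, -0.13 without H3.3-G34W replicate 2, -0.04 without H3.3-WT replicate 1 and -0.01 without H3.3-WT replicate 2). ITGB1, the common beta subunit of laminin-binding integrins, was 63395 in EV replicate 2, 79576 and 66115 in H3.3-WT and 66169.6 and 69487 in H3.3-G34W. ITGA3, its partner in binding LAMA3 and LAMA5 laminins, was 32249 in EV replicate 2, 32784 and 31198 in H3.3-WT and 29432 and 36236 in H3.3-G34W, and CD151, a tetraspanin attached to it, lay between 10581 and 14485. In 1 of the 9, DAG1, which encodes dystroglycan, both H3.3-G34W values (6071 and 5150.0) were above both H3.3-WT values (4253 and 3597), against 11.5% of genes, though EV replicate 2, at 5649, lay between the H3.3-G34W values. In 1 of the 9, ITGA6, they were under (4828 and 4267, against 4838 and 5578), beside 14.9% of genes, with EV replicate 2 lower still at 3556. The gap was narrow, and after rescaling the ITGA6 groups overlapped (5322 and 4069, against 4944 and 5268). Both are named because of their values.

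Basement membrane partners of laminin gave 0 of 16 genes past the threshold and a median log2 difference of -0.21. The most abundant were the type IV collagen genes COL4A2 (26909.9 to 48692) and COL4A1 (20823 to 29773), AGRN, which links laminin to dystroglycan (19406 to 33884.5), and the peroxidase PXDN, which crosslinks type IV collagen (14084 to 23769). COL4A2, COL4A1 and AGRN had their lowest value in H3.3-G34W replicate 1, as LAMC1 did. In 1 of the 16, COL15A1, both H3.3-G34W values were under both H3.3-WT values, against 14.9% of genes, and it is named here because of its values. The median was 0.10 without H3.3-G34W replicate 1, -0.54 without H3.3-G34W replicate 2, -0.33 without H3.3-WT replicate 1 and -0.07 without H3.3-WT replicate 2.

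Proteases that cut laminin chains gave 0 of 6 past the threshold, with a median log2 difference of 0.40 (0.52 without H3.3-G34W replicate 1, 0.20 without H3.3-G34W replicate 2, 0.22 without H3.3-WT replicate 1 and 0.42 without H3.3-WT replicate 2). MMP2 was 1427 in EV replicate 2, 1294 and 2162 in H3.3-WT and 2810 and 2621 in H3.3-G34W, with a log2 difference of 0.70 (standard error 0.30, unadjusted p = 0.0448 and adjusted p = 0.9997 in limma). ADAMTS2 was 554.5 in EV replicate 2, 706 and 617 in H3.3-WT and 722 and 999 in H3.3-G34W, and the H3.3-G34W libraries of these 2 of 6 genes were above the other 3, beside 11.5% of genes with both above both H3.3-WT libraries. MMP14 (32156 to 44148) and BMP1 (2514 to 4297), which trims the LAMA3 chain, had overlapping groups.

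Of 12 enzymes that build the laminin-binding glycan of dystroglycan, 0 passed the threshold and the median log2 difference was -0.09. It was 0.03 without H3.3-G34W replicate 1, -0.20 without H3.3-G34W replicate 2, -0.11 without H3.3-WT replicate 1 and 0.04 without H3.3-WT replicate 2. The most abundant, POMGNT1, lay between 5314 and 6587, POMT1 between 2121 and 3038, B4GAT1 between 1719 and 2991 and POMGNT2 between 1174 and 1462. LARGE2, singled out after its values were seen, extends this glycan and was 6.72 in EV replicate 2, 9.46 and 12.1 in H3.3-WT and 428 and 67.2 in H3.3-G34W. The H3.3-G34W values were above both H3.3-WT values in 2 of the 12, LARGE2 and B4GAT1 (2218 and 2991, against 2203 and 1719), beside 11.5% of genes. They were below in 1, POMT1 (2121 and 2716, against 3038 and 2967), beside 14.9%. The highest LARGE2 value was in the library with the stem cell markers, and their part in it was not tested.

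**Figure D4:**
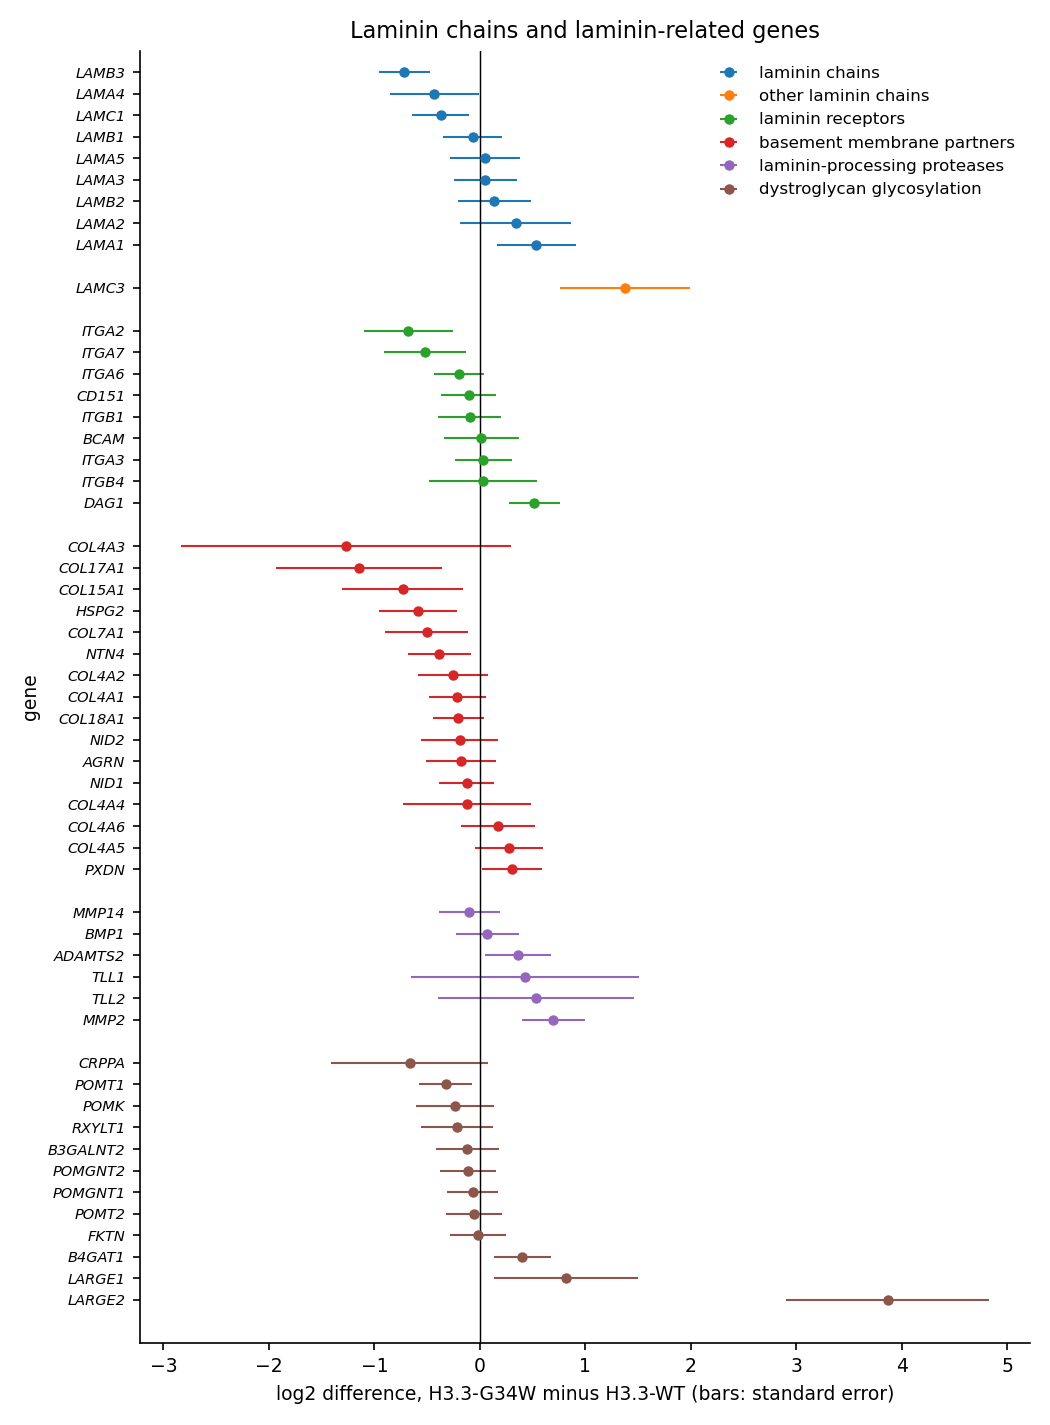
Log2 difference of H3.3-G34W from H3.3-WT for each tested gene of 6 lists (points) with its standard error (bars), ordered by size within a list. Of the 9 members LAMB3 (-0.72), LAMA4 (-0.43) and LAMC1 (-0.37) lie furthest to the left, and none of the genes passed an adjusted p of 0.05.

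Genes whose log2 values most resembled LAMB3 over the 5 libraries were SLC35B1 (Pearson r = 0.998), RAB3B (0.996), KAT14 (0.996), ERCC6L (0.995) and TRAPPC5 (0.994), among 7343 genes with a mean of at least 1000. SLC35B1 was 3362 in EV replicate 2, 3131 and 3513 in H3.3-WT and 2489 and 2545 in H3.3-G34W, the same order of libraries as LAMB3 except that its H3.3-G34W values changed places. The correlation does not reflect the size of a difference, which was smaller than that of LAMB3 for KAT14 and TRAPPC5. KAT14 was 1347 and 1385 in H3.3-WT and 1256 and 1257 in H3.3-G34W, and TRAPPC5 was 3299 and 3385, and 3078 and 3099. Over 5 libraries that share their cell line such correlations are a description, and 30 genes exceeded 0.95. LAMC1 was at 0.821 (rank 355) and LAMB1 at 0.361 (rank 3337).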

How the data were processed

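Poly(A) RNA of hFOB 1.19 cells was sequenced from 6 libraries, of which 5 were compared. Per the labels and methods, the authors ran kallisto on GRCh38 transcript models to estimate counts and DESeq2 to normalise them, and the deposited signal (normalised estimated counts per gene, not whole numbers) was used as it stands. Whole reads were not recovered from it, so tests for counts were not run and depth per library is unknown. Members and gene lists were chosen with earlier results of these data known.

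Values were transformed as log2(value + 1), which understates the change of low genes. The 16436 of 35639 genes that reached 10 in at least 2 of the 5 libraries entered 1 limma fit (limma 3.58.1, R 4.3.3) of EV replicate 2, H3.3-WT and H3.3-G34W, with moderated variances that followed a trend on mean expression, two-sided tests, Benjamini-Hochberg adjustment over all genes tested and a threshold of adjusted p = 0.05. The fit was tested on simulated data, with changes placed in abundant genes and the largest spreads capped, so that power for low or variable genes was not checked. Standard errors are the moderated ones. EV replicate 1, listed at 0 for most genes, was left out.

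Levels between genes are values per kb of the longest coding transcript of GENCODE, found by gene identifier. Coordinates and promoter windows are those of RefSeq on GRCh38.p14, found by symbol. Named genes are the laminin chains, the 4 most abundant genes of each pathway list and any past the threshold. They also include the most abundant and defining genes of each marker list, and the 5 genes most correlated with LAMB3. Others were named after their values were seen, whether or not this is stated beside them. A few genes planned for the lists are not reported, and sums, medians and counts of lists are over the remaining genes. Alternatives were a pseudocount of 0.1, no filter, no variance trend, a replicate block, rescaled and quantile-normalised values, all 6 libraries, only the 4 libraries of H3.3-G34W and H3.3-WT, each library left out in turn, and the median transcript length. Python 3.11.15, pandas 2.3.3 and matplotlib 3.10.9 were used for summaries and figures.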

Additional observations from a re-analysis of the deposited data

Results flagged for a closer look

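LAMB4 had a value of 46.1 in EV replicate 1, a library used only in 1 alternative, beside 40.1 in EV replicate 2 and 8.47 and 8.70 in H3.3-WT. EV replicate 1 was listed at 0 for 28688 genes and its values summed to 157595150, so its scale is unlike that of the other libraries and nothing is read from the difference.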

How the results depend on the processing

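A robust variance prior, chosen after seeing the data, gave 1 gene past the threshold in each of the 3 contrasts in place of 0, and a pseudocount of 0.1 gave 1 for H3.3-WT against EV and 1 for H3.3-G34W against EV. With each library left out in turn, calls ranged from 0 to 52 when H3.3-G34W was set against H3.3-WT, from 0 to 3 for H3.3-WT against EV and from 1 to 28 for H3.3-G34W against EV; without EV replicate 2 the contrasts with EV have no value. The median log2 difference of the 9 chains ranged from -0.36 to 0.19 in the same way, and moved past the spread without H3.3-G34W replicate 2. For medians the spread is the SD of the chain median between the H3.3-G34W libraries (0.39), which includes the library that stood apart. For single chains it is the moderated residual SD of the gene. The alpha sum per kb was 13.0% of LAMC1 and LAMC3 together on average over the 5 libraries, and 20.4% with the median length of the coding transcripts, a value set by the shorter lengths. With the replicate number as a block (replicate block), calls remained 0 in each contrast. In limma 740, 422 and 321 genes then had an unadjusted p under 0.05, against 466, 175 and 324 without the block. Deviations of same-numbered H3.3-WT and H3.3-G34W libraries correlated at 0.0666 across genes. Because H3.3-G34W replicate 1 stood apart, this value cannot tell whether same-numbered libraries share an infection or batch. Calls were 0 under each alternative run among the 9 chains for H3.3-WT against EV, and in the pathway lists for H3.3-G34W set against H3.3-WT; the chains for H3.3-G34W against EV, and the lists in the contrasts with EV, were not run under alternatives. For H3.3-G34W set against H3.3-WT, the log2 difference of a single gene can change only with the pseudocount, rescaling, quantile normalisation or a left-out H3.3-G34W or H3.3-WT library. Of the single chain values and the medians of the other lists, 45 stayed within the spread and 0 moved under the first 3, whereas 50 stayed and 10 moved with a library left out, the latter in LAMA1, LAMA2, LAMA4, LAMA5 and LAMB2. A change of sign inside the spread counts as stayed. The basement membrane median, for example, went from -0.21 to 0.10 without H3.3-G34W replicate 1. Without the filter LAMB4 was added to LAMC3, and their median was -0.27 in place of 1.38. Libraries of unknown depth, and 2 per group, limit what can be told of low chains such as LAMB4 and LAMC3. Why calls differ between alternatives was not tested.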
